A study of Mus musculus with 2 samples.

Results

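The 9 genes described here encode chemokine receptors of effector lymphocytes, namely Ccr1, Ccr2, Ccr4, Ccr6, Ccr8, Ccr9, Cxcr3, Cxcr4 and Cxcr6. They were taken by symbol from a table of 24091 genes, and each had exactly 1 row. Ccr7, the receptor that guides naive T cells into lymph nodes, is not among them. The table held RNA-seq read counts for 2 libraries, made from total RNA of mouse splenic γδ T cells, a T cell lineage named for the γ and δ chains of its antigen receptor. One library was labelled IL-2 expanded and the other freshly isolated, with 1 library per group. For the expanded library, the protocol in the labels describes cells sorted by flow cytometry and activated with anti-CD3 bound to the plate and soluble anti-CD28. The medium held recombinant mouse IL-2 at 100 U/ml for 5 days. The same protocol text stands beside the freshly isolated library, which its treatment label and the design text call freshly isolated, and the extraction text of both libraries speaks of cultured cells. The freshly isolated library was taken by its treatment label. On that reading activation, culture and IL-2 were given together, and their effects cannot be told apart. The strain, sex and age of the mice, and any pooling of spleens, are not stated in the labels.

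Chemokine receptors are membrane receptors that couple to inhibitory G proteins and steer a cell up a gradient of a secreted chemokine. Which receptors a T cell displays differs between its states. Naive cells circulate through lymphoid organs, effector cells enter inflamed tissue through receptors such as CCR2 and CXCR3, and cells that settle in gut, skin or liver display receptors such as CCR9, CCR4 or CXCR6. Mouse γδ T cells include a type 17 subset marked by CCR6 and CCR2 and an interferon γ subset in which CXCR3 is common.

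The expanded library had a total count of 22204099 and the freshly isolated library 20379385. Levels are given as counts per 1000000 of the scaled library size (CPM), and 1 count was worth 0.0476 CPM in the expanded and 0.0465 CPM in the freshly isolated library. With 1 library per group no difference could be tested, and each interval below is an exact 95% interval for counting error alone. A gene was called when it was at least 4-fold apart either way by its log2 fold, which sets the expanded over the freshly isolated library after adding a prior count of 2. Calls were made among genes whose mean over both libraries reached 1 CPM. Of 9 T cell markers, 7 lay within 4-fold and none had 0 counts, with Cd3e at 688 CPM in the expanded and 734 CPM in the freshly isolated library. The other 2 were called lower, Cd5 at 4.42 CPM in expanded and 132 CPM in freshly isolated cells and Cd2 at 76.2 CPM in expanded and 396 CPM in freshly isolated cells. The constant genes of the γ and δ chains were not analysed here. Markers of several other spleen cells summed to more in the freshly isolated library. The 20 monocyte and macrophage markers summed to 179 CPM in the expanded and 1467 CPM in the freshly isolated library, with 13 of them at 0 counts in the expanded library. Of these sums Ly6c2 held 154 CPM in expanded and 421 CPM in freshly isolated cells. The 15 B cell and plasma cell markers summed to 10.4 CPM in the expanded and 977 CPM in the freshly isolated library, with 7 at 0 counts in the expanded library. The 12 dendritic cell markers summed to 26.7 CPM in the expanded and 1431 CPM in the freshly isolated library, and the 9 erythroid and platelet markers in the table to 0.428 CPM in the expanded and 80.4 CPM in the freshly isolated library. Single markers of other cells went the other way, among them the neutrophil gene Ly6g (374 counts in expanded and 0 counts in freshly isolated cells), the basophil gene Mcpt8 (359 counts in expanded and 2 counts in freshly isolated cells), Cd8a (9.13 CPM in expanded and 0.929 CPM in freshly isolated cells) and Il1rl1 (7.71 CPM in expanded and 0.836 CPM in freshly isolated cells). The 13 neutrophil markers summed to 21.5 CPM in expanded and 28.5 CPM in freshly isolated cells. The 6 alpha beta and regulatory T cell markers, which include Cd8a, summed to 50.6 CPM in expanded and 331 CPM in freshly isolated cells. Most of both sums was Ikzf2 (38.7 CPM in expanded and 298 CPM in freshly isolated cells). Of the 6 markers, Cd4, Cd8b1, Ikzf2 and Cd40lg were called lower. The 9 NK and innate lymphoid cell markers, which include Il1rl1, summed to 437 CPM in expanded and 655 CPM in freshly isolated cells. More than any other gene, Eomes made up these sums (362 CPM in expanded and 370 CPM in freshly isolated cells). Ncr1, Klre1 and Areg of this list were called lower. The dendritic cell sum in freshly isolated cells rested mostly on Cd74 (582 CPM), H2-Aa (227 CPM), H2-Eb1 (204 CPM) and H2-Ab1 (155 CPM), and the B cell and plasma cell sum there on Jchain (784 CPM). The 19 immediate early and tissue dissociation genes summed to 1636 CPM in the expanded and 26871 CPM in the freshly isolated library. The part of other cells and of handling in the receptor values was not tested, and in such bulk samples fewer cells of a type and less RNA per cell cannot be told apart.

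The 2 libraries differed in which receptor transcripts they held. Ccr1 and Ccr2, receptors for inflammatory chemokines, were higher in the expanded library, whereas Cxcr4, Cxcr3, Ccr6 and Ccr9 were lower and the last 2 had no count there. Ccr4, Cxcr6 and Ccr8 lay within 4-fold. Of the 9 genes, 2 were thus at least 4-fold higher and 4 at least 4-fold lower, where 8.92% and 13.5% of the 11715 genes that reached a mean of 1 CPM were called in these directions. At a threshold of 2-fold, 4 were higher and 4 lower (22.4% and 25.0% of the 11715 genes), and at 10-fold 2 were higher and 4 lower (4.41% and 7.26%). The median log2 fold was -0.18 over the 9 genes and 0.04 over the 11715 genes, but the 9 values spread widely to both sides and the median describes none of the called genes. Each of the 9 reached the mean of 1 CPM. Ccr1 reached it through the expanded library alone and Ccr6 and Ccr9 through the freshly isolated library alone, so these 3 had to differ between the libraries.

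**Figure D1:**
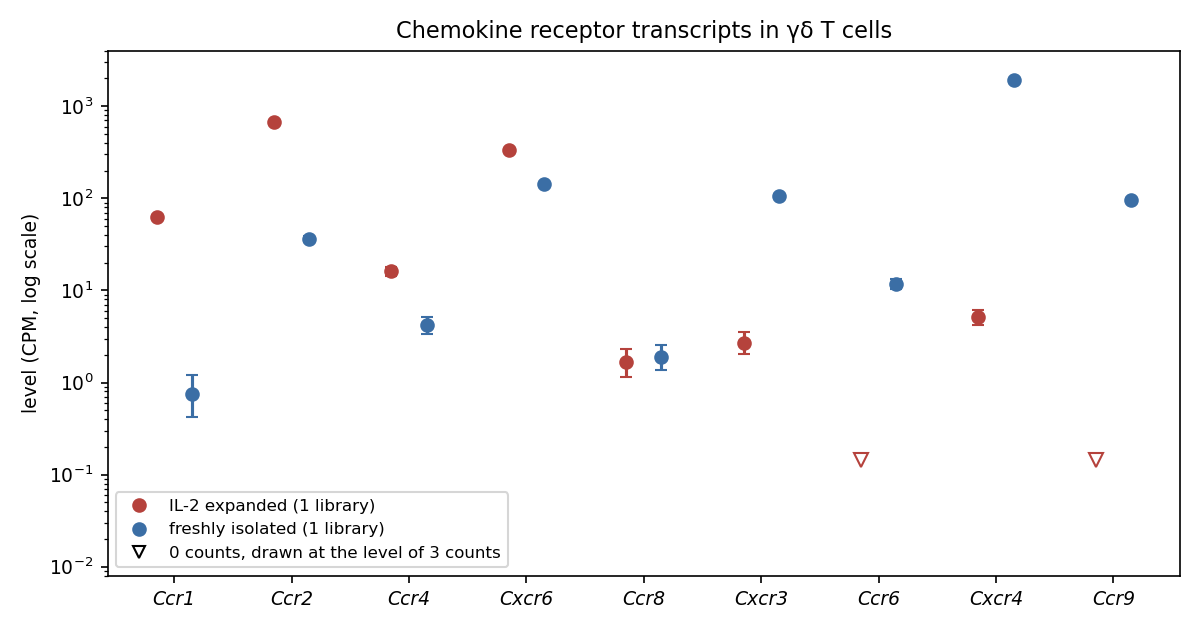
Level of each of the 9 receptor transcripts in CPM (log axis), with IL-2 expanded cells in red on the left and freshly isolated cells in blue on the right of each pair, 1 library each. Bars are exact 95% counting intervals, and open triangles mark 0 counts drawn at the level of 3 counts. Ccr1 and Ccr2 are higher in expanded cells (62.3 and 677 CPM), Cxcr4 stands at 5.09 CPM in expanded and 1944 CPM in freshly isolated cells, and Ccr6 and Ccr9 have no count in expanded cells.

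Among the inflammatory receptors, Ccr2 was the most abundant of the 9 by counts in the expanded library. It encodes the receptor for CCL2, which draws monocytes and some T cells to inflamed tissue. Ccr2 had 14239 counts (677 CPM) in the expanded library and 773 counts (35.9 CPM) in the freshly isolated library. It was 18.9-fold higher in expanded cells (interval 17.5 to 20.3). Ccr1 encodes a receptor for CCL3 and CCL5. It had 1310 counts (62.3 CPM) in the expanded library and 16 counts (0.743 CPM) in the freshly isolated library, 83.8-fold higher with an interval of 51.4 to 147. The interval is wide because the freshly isolated library held so few counts. Both genes are also known from monocytes and macrophages, whose 20 markers summed to 179 CPM in expanded and 1467 CPM in freshly isolated cells. Most of the expanded sum was Ly6c2 (154 CPM in expanded and 421 CPM in freshly isolated cells), and 13 of the 20 had 0 counts in expanded cells. Csf1r, the receptor that defines the monocyte and macrophage lineage, had 1 count in the expanded library and 3044 counts in the freshly isolated library. The part of these cells in the Ccr1 and Ccr2 values was not tested.

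Cxcr3 and Cxcr6, which are often displayed together on type 1 effector cells, differed in opposite directions. Cxcr3 encodes the receptor for the interferon-induced chemokines CXCL9 and CXCL10. It had 57 counts (2.71 CPM) in the expanded library and 2298 counts (107 CPM) in the freshly isolated library, 39.4-fold lower in expanded cells (interval 30.3 to 52.2). Cxcr6 encodes the receptor for CXCL16, a chemokine anchored in membranes, and marks T cells that reside in liver and other tissues. It had 7078 counts (337 CPM) in the expanded library and 3041 counts (141 CPM) in the freshly isolated library. That is 2.38-fold higher in expanded cells (interval 2.28 to 2.49), below the 4-fold threshold. Cxcr6 was the only one of the 9 above 100 CPM in both libraries.

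Ccr4 and Ccr8 are receptors of skin-homing, type 2 and regulatory T cells, CCR4 for CCL17 and CCL22 and CCR8 for CCL1. Ccr4 had 338 counts (16.1 CPM) in the expanded library and 91 counts (4.23 CPM) in the freshly isolated library. Its ratio of 3.80 lay just under 4-fold, with an interval of 3.01 to 4.85 that holds 4. Ccr8 was near the detection limit in both libraries, with 35 counts (1.66 CPM) in expanded and 41 counts (1.90 CPM) in freshly isolated cells. Its ratio was 0.874 with an interval of 0.540 to 1.41, so no difference was detectable at this depth. The regulatory T cell factor Foxp3 was likewise low, at 1.81 CPM in the expanded and 1.21 CPM in the freshly isolated library.

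Ccr6 and Ccr9 had counts in the freshly isolated library only. CCR6 is the receptor for CCL20 and marks type 17 lymphocytes, and it is also displayed by B cells. Ccr6 had 0 counts in the expanded library, which allows up to 0.143 CPM (3 counts), and 254 counts (11.8 CPM) in the freshly isolated library, at least 82.7-fold lower in expanded cells. CCR9 is the receptor for CCL25 and guides lymphocytes to the small intestine and thymus. Ccr9 had 0 counts in the expanded library and 2067 counts (96.0 CPM) in the freshly isolated library, at least 673-fold lower in expanded cells. Markers of B cells, which can display CCR6, were lower in the same library (10.4 CPM in expanded and 977 CPM in freshly isolated cells), and their part in the Ccr6 value was not tested. Plasmacytoid dendritic cells also display CCR9. The markers of those cells were divided. Of the 10 listed, which include Ccr9 itself, 7 reached a mean of 1 CPM, with Irf8 and Cox6a2 called higher and Ccr9, Spib and Pacsin1 called lower in expanded cells. Pacsin1 had 1 count in the expanded and 957 counts in the freshly isolated library, Spib 0 counts in expanded and 107 counts in freshly isolated cells, and Siglech 0 counts in expanded and 3 counts in freshly isolated cells. Over the whole list the sum was 485 CPM in expanded and 267 CPM in freshly isolated cells, with 4 genes at 0 counts in the expanded library. Ccr9 itself held 96.0 CPM of the freshly isolated sum. Most of the expanded sum was Irf8 (382 CPM in expanded and 45.8 CPM in freshly isolated cells), which is also expressed outside those cells. The part of plasmacytoid dendritic cells in the Ccr9 value was not tested.

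Cxcr4, the receptor for CXCL12 that holds lymphocytes in bone marrow and lymphoid tissue, had the largest difference in CPM of the 9. It had 107 counts (5.09 CPM) in the expanded library and 41855 counts (1944 CPM) in the freshly isolated library, 382-fold lower in expanded cells (interval 316 to 466). Per length, as CPM divided by the deposited gene length in kb, it ranked 8691st in the expanded and 19th in the freshly isolated library among the 24091 genes. The immediate early gene Fos moved beside it, at 3.23 CPM in the expanded and 2237 CPM in the freshly isolated library. Summed over their lists, macrophage, B cell and dissociation genes were lower in the same library. Of the dissociation genes, Ier3 went the other way, at 48.6 CPM in expanded and 4.23 CPM in freshly isolated cells, and Egr1 and Egr2 lay within 4-fold. The part of other cells and of dissociation in the Cxcr4 value was not tested.

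Summed over the 9 genes, receptor transcripts took 1102 CPM in the expanded and 2343 CPM in the freshly isolated library, 2.13-fold lower in expanded cells (interval 2.09 to 2.16). This sum rested on Cxcr4. Without Cxcr4 the other 8 genes summed to 1097 CPM in the expanded and 399 CPM in the freshly isolated library, 2.75-fold higher in expanded cells (interval 2.68 to 2.82). Cxcr4 made up 0.462% of the counts of the 9 genes in the expanded library (interval 0.379 to 0.558) and 83.0% in the freshly isolated library (interval 82.7 to 83.3, both exact by Clopper-Pearson). For Ccr2 the shares were 61.5% in expanded cells (interval 60.8 to 62.1) and 1.53% in freshly isolated cells (interval 1.43 to 1.64). Ccr6 and Ccr9, at 0 of 23164 counts, could each have held up to 0.0130% in the expanded library.

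Levels of different genes were compared per kb of gene length. In the expanded library the order by deposited length was Cxcr6 (175 CPM per kb), Ccr2 (155), Ccr1 (22.0), Ccr4 (5.77), Cxcr4 (2.81), Cxcr3 (1.69) and Ccr8 (1.44 CPM per kb), followed by Ccr6 and Ccr9 at 0 counts. The intervals of the neighbours Cxcr3 (from 1.28 CPM per kb) and Ccr8 (up to 2.01 CPM per kb) overlapped, so their order was not resolved. In the freshly isolated library it was Cxcr4 (1073 CPM per kb), Cxcr6 (73.5), Cxcr3 (66.4), Ccr9 (19.2), Ccr2 (8.23), Ccr6 (5.69), Ccr8 (1.65), Ccr4 (1.52) and Ccr1 (0.263 CPM per kb). There the intervals of Ccr8 (1.18 to 2.24 CPM per kb) and Ccr4 (1.22 to 1.86 CPM per kb) overlapped. The top place in the expanded library depended on the length used. Cxcr6 took 48.1% and Ccr2 42.6% of the summed level per kb with the deposited lengths, but Cxcr6 took 31.3% and Ccr2 60.5% with coding lengths. The deposited length of Ccr2 was 4.361 kb, against 6.760 kb of exons in GENCODE M21 and 1119 coding bases. In freshly isolated cells Cxcr4 held between 83.2% and 87.2% whichever of these lengths was used.

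**Figure D2:**
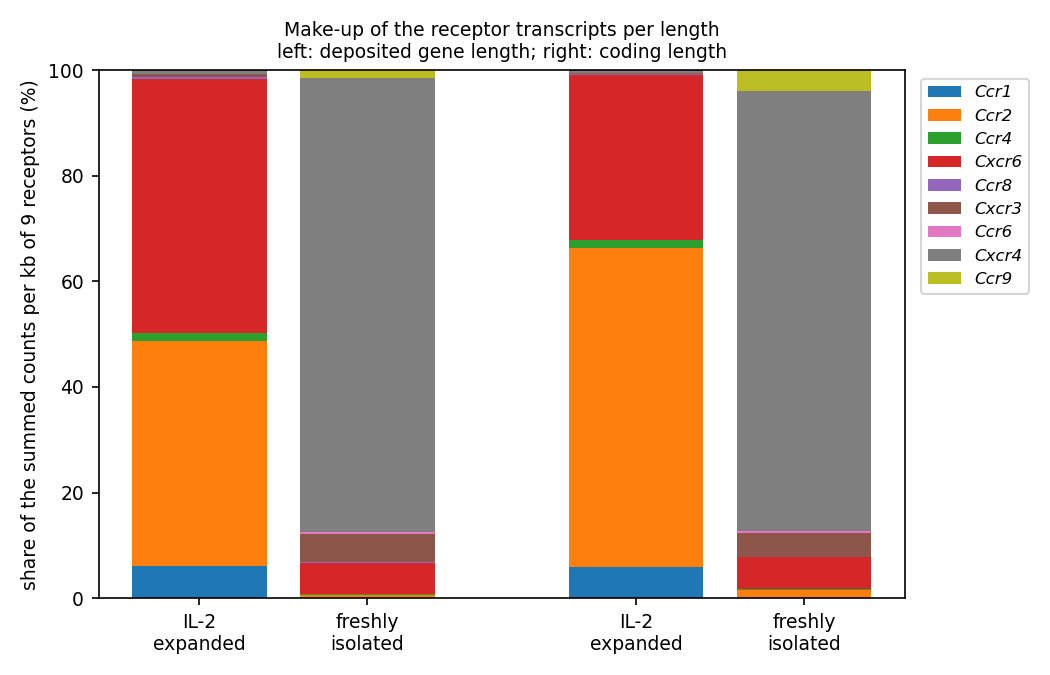
Share of each receptor in the summed counts per kb of the 9 genes (%), in IL-2 expanded cells on the left and freshly isolated cells on the right of each pair, 1 library each, by deposited gene length (left pair) and by coding length (right pair). Cxcr6 and Ccr2 fill most of the expanded bars and change places with the length used, while Cxcr4 fills 85.9% and 83.2% of the freshly isolated bars.

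Of the receptor genes, 6 lie on mouse chromosome 9, and 4 of these in a cluster with other receptor genes. The stretch from Ccr9 to Ccr2 runs over 435 kb (chr9:123678096-124113557, build GRCm38, deposited spans). Neighbouring genes in it differed in direction. Ccr1 (chr9:123962126-123968692) and Ccr2 (chr9:124102183-124113557) were called higher in expanded cells. Ccr3, the eotaxin receptor of eosinophils, lies between them, 53.3 kb from Ccr1 and 70.5 kb from Ccr2. It had 26 counts (1.24 CPM) in the expanded library and 510 counts (23.7 CPM) in the freshly isolated library, 19.2-fold lower in expanded cells (interval 12.9 to 29.6). Of the 11 markers of mast cells, basophils and eosinophils, which include Ccr3, the eosinophil gene Prg2 had 0 counts in expanded and 180 counts in freshly isolated cells, while Epx and Siglecf had between 1 and 6 counts in either library. The list summed to 41.9 CPM in expanded and 77.1 CPM in freshly isolated cells, and Ccr3 itself held 1.24 and 23.7 CPM of these sums. In it, 4 genes had 0 counts in expanded cells, and the part of mast cells, basophils and eosinophils in the Ccr3 value was not tested. At the other end of the stretch lies Ccr9 (chr9:123678096-123783457), with no count in expanded cells. Of 8 genes of the stretch that reached a mean of 1 CPM, 2 were called higher (Ccr1 and Ccr2) and 2 lower (Ccr9 and Ccr3). Over all genes tested, 8.92% were called higher and 13.5% lower. Ccr1 and Ccr9 each passed the filter through 1 library alone, so they had to differ. In a list of 18 neighbours over a wider region, 11 reached a mean of 1 CPM, and Ccrl2 was called lower besides. The other genes lie elsewhere, Ccr4 (chr9:114490316-114496544) and Ccr8 (chr9:120092133-120094906) on the same chromosome, Cxcr4 at chr1:128588199-128592299, Ccr6 at chr17:8236043-8257129 and Cxcr3 at chrX:101731535-101734147.

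**Figure D3:**
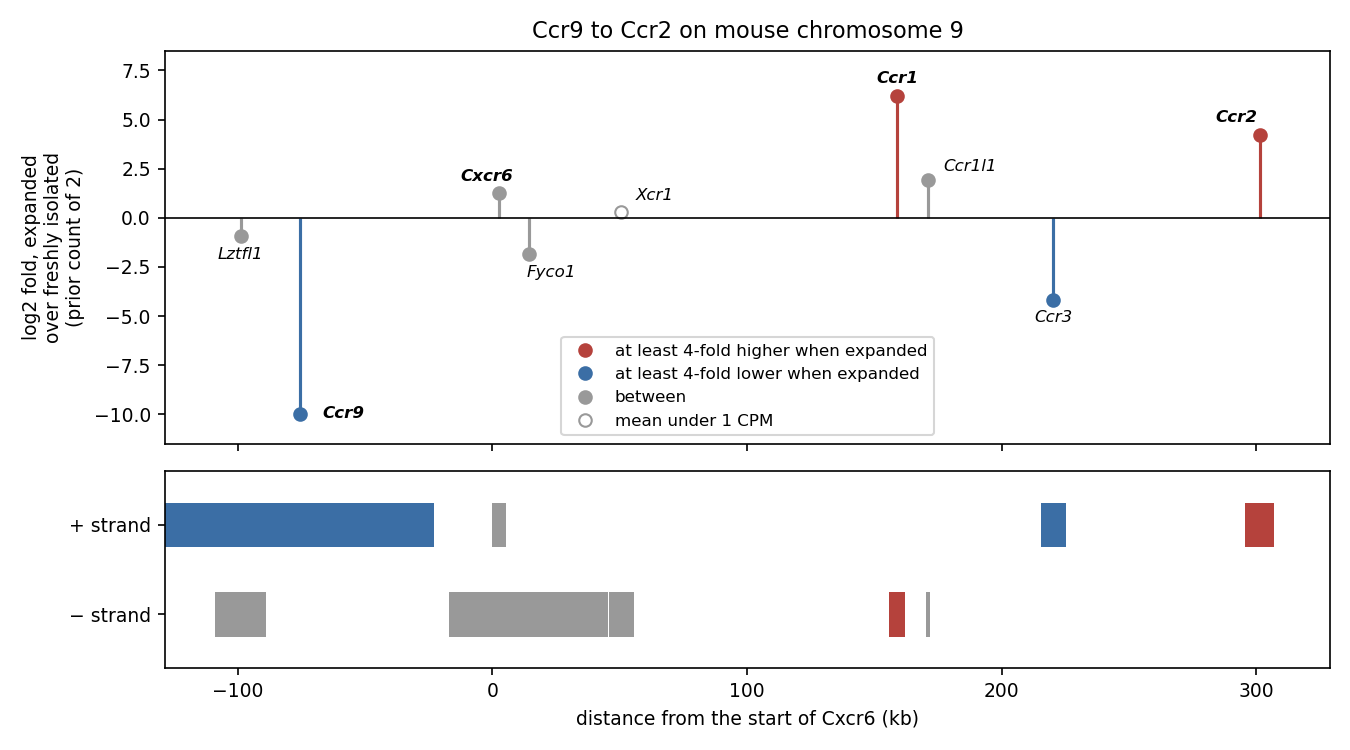
Log2 fold (IL-2 expanded over freshly isolated cells, 1 library each, prior count of 2) of the genes from Ccr9 to Ccr2 on chromosome 9, placed by distance from the start of Cxcr6 in kb, with the gene spans by strand underneath. Red marks genes at least 4-fold higher and blue genes at least 4-fold lower in expanded cells, and names in bold are members of the set of 9. Slc6a20a, with 2 counts in all, is not drawn. Ccr3 at -4.16 stands between Ccr1 at 6.22 and Ccr2 at 4.23.

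Counts of overlapping genes could be shared. Cxcr6 (chr9:123806477-123811754) lies within the span of Fyco1 on the other strand, and the 2 genes share 0 exon bases in GENCODE M21. Fyco1, an adaptor for the transport of autophagosomes, stood at 18.3 CPM in expanded and 65.4 CPM in freshly isolated cells, the opposite direction to Cxcr6. Ccr9 spans Lztfl1 with 0 shared exon bases and shares 22 exon bases with Slc6a20a, which had 0 counts in the expanded and 2 counts in the freshly isolated library. Of the 50-base stretches in the transcripts of Ccr2, 1.91% also occur in other genes, and for Ccr9 20.1% do so, most of them in the gene model AC165425.1. For Ccr1, Ccr6, Ccr8, Cxcr3, Cxcr4 and Cxcr6 none did.

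The windows of 250 bases before the start sites were read from RefSeq promoters (GRCm38.p6), and all 9 genes matched, with 2 windows for Ccr6. Those shown are the windows of Ccr1 and Cxcr6, which were higher in expanded cells, and of Cxcr4 and Ccr6, which were lower. They lie at chr9:123968693-123968942 (minus strand), chr9:123806227-123806476 (plus strand), chr1:128592300-128592549 (minus strand) and chr17:8235793-8236042 (plus strand, the first of 2 start sites). Capitals mark matches on either strand to the motifs searched, which were chosen after the values were seen.
Ccr1: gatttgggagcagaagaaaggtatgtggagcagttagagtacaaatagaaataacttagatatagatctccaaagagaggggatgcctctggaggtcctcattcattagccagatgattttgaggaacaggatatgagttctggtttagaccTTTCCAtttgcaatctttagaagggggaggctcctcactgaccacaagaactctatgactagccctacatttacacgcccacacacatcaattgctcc
Cxcr6: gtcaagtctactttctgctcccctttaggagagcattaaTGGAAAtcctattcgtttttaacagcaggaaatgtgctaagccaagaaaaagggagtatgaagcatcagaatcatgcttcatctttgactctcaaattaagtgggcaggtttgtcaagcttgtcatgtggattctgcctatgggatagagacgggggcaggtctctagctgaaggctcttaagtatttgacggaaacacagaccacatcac
Cxcr4: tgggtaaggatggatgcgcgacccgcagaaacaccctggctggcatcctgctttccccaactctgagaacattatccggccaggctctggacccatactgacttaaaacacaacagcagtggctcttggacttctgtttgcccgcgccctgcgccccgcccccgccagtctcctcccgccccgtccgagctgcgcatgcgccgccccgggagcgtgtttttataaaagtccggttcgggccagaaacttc
Ccr6: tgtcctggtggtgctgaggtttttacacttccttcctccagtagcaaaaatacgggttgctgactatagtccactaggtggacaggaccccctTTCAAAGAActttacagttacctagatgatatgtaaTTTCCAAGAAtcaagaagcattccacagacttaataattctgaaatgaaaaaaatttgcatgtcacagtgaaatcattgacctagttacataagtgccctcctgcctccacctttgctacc
The Cxcr4 window differs from the others in base composition. It has 61.2% G and C and 19 CpG dinucleotides, against 43.6% and 1 CpG for Ccr1, 43.6% and 3 CpG for Cxcr6, and 41.2% and 1 CpG for Ccr6. Over 32851 windows the medians were 52.4% and 6 CpG. The Ccr6 window holds 2 matches to the STAT motif TTCNNNGAA, 157 and 120 bases before the start, and the second overlaps a match to the NFAT motif TGGAAA on the other strand. Of all windows, 7.02% hold a STAT match and 18.6% an NFAT match. NFAT matches were found before 4 of the 9 genes, Ccr1, Ccr2, Cxcr6 and Ccr6, and thus before genes of both directions. The percentages are per window, while Ccr6 had 2 windows. Of the 250 bases of a window, GENCODE M21 exons on the same strand hold 233 for Ccr2 and 122 for Cxcr3. The Ccr9 window and the second Ccr6 window do not end at the deposited starts of these genes. The T-box core TCACACC (3.33% of all windows) and the KLF motif CCACACCC (3.20%) had no match before any of the 9. The AP-1 motif TGANTCA (6.75%) had 1 match, before Ccr4, and the GATA motif AGATAA (9.99%) was found before Ccr2, Ccr6 and Ccr8.

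A list of 8 other chemokine receptors, which does not hold every remaining receptor, was set beside the 9. Of these 8, 5 reached a mean of 1 CPM, and the 5 were called lower in the expanded library, where 13.5% of all genes tested were. Ccr10, Cxcr5 and Cx3cr1 passed this filter through the freshly isolated library alone, so they had to differ. Ccr7 stood at 2.76 CPM in expanded and 806 CPM in freshly isolated cells, 292-fold lower in expanded cells (interval 226 to 385). Cxcr5, which guides cells into B cell follicles, had 2 counts in expanded and 809 counts in freshly isolated cells (interval of the fold 109 to 3268). Cx3cr1, the receptor for fractalkine, stood at 0.856 CPM in expanded and 15.1 CPM in freshly isolated cells. Ccr10, a receptor of skin and mucosal lymphocytes, had 0 counts in expanded and 69 counts in freshly isolated cells. The fifth was Ccr3. Cxcr1, Cxcr2 and Xcr1 had between 0 and 5 counts in either library. Among 6 atypical receptors, which bind chemokines without G protein signalling, only Ccrl2 passed the filter, at 1.09 CPM in expanded and 71.3 CPM in freshly isolated cells, and Ackr3, the second receptor for CXCL12, had 0 counts in expanded and 24 counts in freshly isolated cells.

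**Figure D4:**
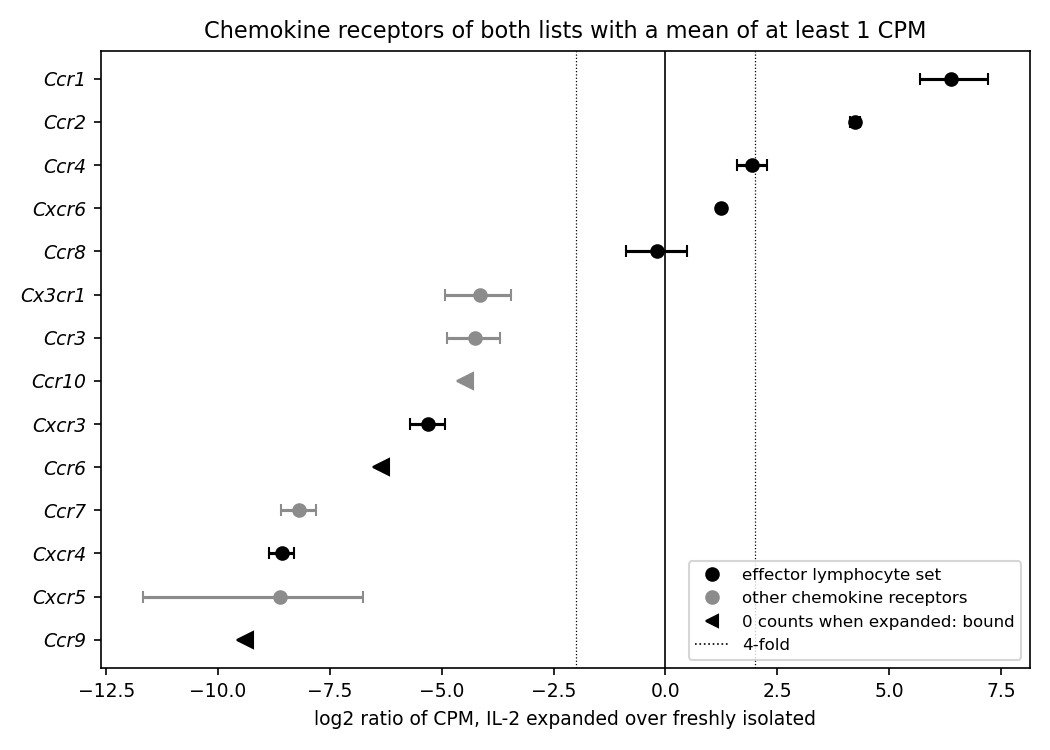
Log2 ratio of CPM (IL-2 expanded over freshly isolated, 1 library each) for the 9 effector lymphocyte receptors and the 5 of 8 listed other receptors that reached a mean of 1 CPM, with exact 95% counting intervals. Black marks the effector lymphocyte set and grey the other receptors, triangles are bounds for genes with 0 counts in expanded cells, and dotted lines mark 4-fold. Ccr1 and Ccr2 lie beyond 4-fold on the higher side, and Ccr8 has an interval that spans no change.

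Ligands of the 9 receptors were divided. Of 20 in the table, 11 reached a mean of 1 CPM, of which 3 were called higher and 5 lower (median log2 fold -0.88). Over all genes tested, 8.92% were called higher and 13.5% lower, with a median of 0.04. Ccl1 passed the filter through the expanded library alone, and Ccl6, Cxcl9 and Cxcl16 through the freshly isolated library alone. These ligand genes thus had to differ. Ccl3 stood at 124 CPM in expanded and 27.0 CPM in freshly isolated cells, 4.60-fold higher in expanded cells, and Ccl4 at 102 CPM in expanded and 23.1 CPM in freshly isolated cells, 4.40-fold higher. The third was Ccl1, the CCR8 ligand, with 87 counts in expanded and 2 counts in freshly isolated cells (ratio 44.5, interval 12.0 to 374). By contrast, Ccl5, which binds CCR1, stood at 13.0 CPM in expanded and 962 CPM in freshly isolated cells, 73.8-fold lower in expanded cells (interval 65.5 to 83.4). Ccr1 thus differed in the opposite direction to its ligand gene Ccl5 and in the same direction as its ligand gene Ccl3. Cxcr6 and Cxcl16 differed in opposite directions, with Cxcl16 at 0.523 CPM in expanded and 9.66 CPM in freshly isolated cells. For Cxcr3, receptor and ligand genes were both lower in expanded cells, with Cxcl10 at 2.43 CPM in expanded and 21.7 CPM in freshly isolated cells and Cxcl9 at 0 counts in expanded and 84 counts in freshly isolated cells. Cxcl9, Cxcl10 and Cxcl16 are also made by macrophages, whose summed markers were lower in the same library. The part of macrophages in the values of these ligand genes was not tested. Ccl2, Ccl22, Cxcl12 and Ccl20 had 0 counts in expanded cells and 5, 11, 1 and 0 counts in freshly isolated cells, and Ccl25 stood at 1.90 CPM in expanded and 3.58 CPM in freshly isolated cells.

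Most genes that carry the signal of these receptors lay within 4-fold, as did 9092 of the 11715 genes tested. Of 15 genes for G proteins and the PI3Kγ enzyme, 13 did so (median log2 fold 0.51). Gnai2, the main inhibitory G protein subunit of lymphocytes, stood at 873 CPM in expanded and 759 CPM in freshly isolated cells. The subunits of PI3Kγ differed, with the catalytic gene Pik3cg at 246 CPM in expanded and 102 CPM in freshly isolated cells. Its adaptor Pik3r5 stood at 68.7 CPM in expanded and 256 CPM in freshly isolated cells, whereas the alternative adaptor Pik3r6 stood at 11.3 CPM in expanded and 0.557 CPM in freshly isolated cells, 20.2-fold higher in expanded cells (interval 11.4 to 39.7). Pik3r6 passed the filter through the expanded library alone, so it had to differ. The phospholipase gene Plcb2 was 4.67-fold lower in expanded cells (41.7 CPM in expanded and 195 CPM in freshly isolated cells), and Gnaq had a ratio of 3.95. Of 23 migration effectors, 21 lay within 4-fold, and the other 2 were lower. These were Rasgrp2, which activates the integrin switch Rap1, at 14.4 CPM in expanded and 273 CPM in freshly isolated cells, and the integrin gene Itga4 at 21.3 CPM in expanded and 1045 CPM in freshly isolated cells.

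Genes that switch chemokine receptors off included 3 called lower and none called higher at this prior count. Of 7 receptor kinases and arrestins, 1 was called lower and none higher (median log2 fold -1.16). Grk3, a kinase that marks used receptors for removal, stood at 0.428 CPM in expanded and 69.6 CPM in freshly isolated cells, 163-fold lower in expanded cells (interval 85.5 to 356). Grk3 passed the filter through the freshly isolated library alone, so it had to differ. Grk6 had 169 CPM in expanded and 536 CPM in freshly isolated cells, and the arrestin gene Arrb1 had 112 CPM in expanded and 88.0 CPM in freshly isolated cells. Of 11 RGS genes, which speed the shut-off of G proteins, 2 were called lower and none higher (median -1.43). Rgs2 stood at 12.8 CPM in expanded and 1212 CPM in freshly isolated cells, 94.4-fold lower in expanded cells (interval 83.7 to 107), and Rgs11 at 1.09 CPM in expanded and 19.3 CPM in freshly isolated cells. Rgs16 was 2.96-fold higher in expanded cells (140 CPM in expanded and 47.2 CPM in freshly isolated cells). Over all genes tested, 8.92% were called higher and 13.5% lower, so 1 of 7 and 2 of 11 lower stand near the background. At 2-fold, 4 of 7 receptor kinases and arrestins and 7 of 11 RGS genes were lower, where 25.0% of all genes tested were. In the other direction, 0 of 7 and 2 of 11 were higher at 2-fold, where 22.4% of all genes tested were. Rgs18 stood at 6.90 CPM in expanded and 1.67 CPM in freshly isolated cells. Its ratio was 4.12 (interval 2.85 to 6.12), and its log2 fold of 1.98 lay just under the threshold.

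**Figure D5:**
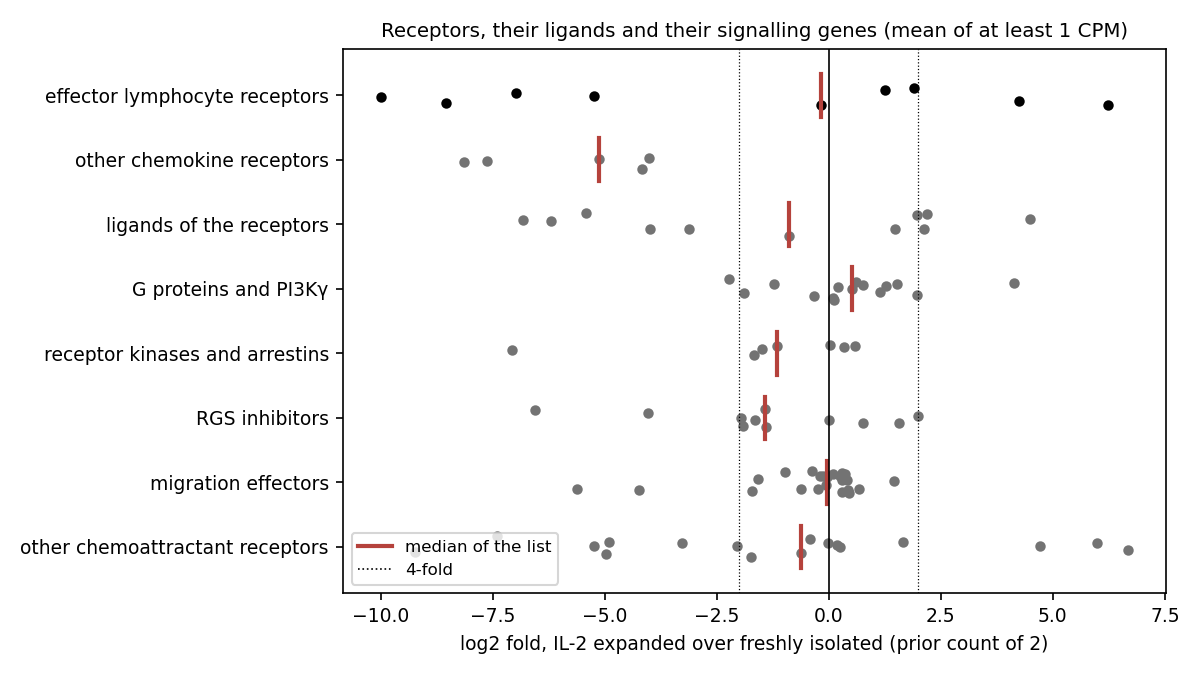
Log2 fold (IL-2 expanded over freshly isolated cells, 1 library each, prior count of 2) of the listed genes that reached a mean of 1 CPM in the receptor, ligand and signalling lists, with the list median as a red bar and 4-fold as dotted lines. The 9 receptors spread from -10.00 to 6.22, while 21 of 23 migration effectors lie within 4-fold.

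Receptors for other attractants were also divided. Of 17 measured, 3 were called higher and 7 lower, where 8.92% and 13.5% of all genes tested were. Cysltr1 passed the filter through the expanded library alone, and S1pr5, Fpr1 and Fpr2 through the freshly isolated library alone. These genes thus had to differ. The leukotriene receptor genes Ltb4r1 (163 CPM in expanded and 1.49 CPM in freshly isolated cells) and Cysltr1 (46.8 CPM in expanded and 0.650 CPM in freshly isolated cells) were 109-fold and 72.0-fold higher in expanded cells. The third was the complement receptor gene C5ar1, at 33.8 CPM in expanded and 1.21 CPM in freshly isolated cells. On the lower side stood the sphingosine phosphate receptor genes S1pr1, at 1.38 CPM in expanded and 892 CPM in freshly isolated cells, and S1pr5, with 1 count in expanded and 513 counts in freshly isolated cells.

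Of 20 transcription factor genes of T cell differentiation and homing, 1 was called higher and 4 lower (median log2 fold -1.05), near the 8.92% and 13.5% of all genes tested. At 2-fold, 3 were higher and 10 lower, where 22.4% and 25.0% of all genes tested were. Tbx21, the type 1 factor known for Cxcr3, stood at 56.9 CPM in expanded and 106 CPM in freshly isolated cells, a 1.87-fold difference beside the 39.4-fold difference of Cxcr3. Zbtb16, a factor of innate-like T cells known for Cxcr6, stood at 0.190 CPM in expanded and 22.8 CPM in freshly isolated cells, while Cxcr6 was higher in expanded cells. Zbtb16 passed the filter through the freshly isolated library alone, so it had to differ. Klf2 was 658-fold lower in expanded cells and Id2 4.40-fold higher, and Hif1a stood at 570 CPM in expanded and 143 CPM in freshly isolated cells.

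Genes with levels most like those of each receptor were found by Euclidean distance of log2(CPM + 1) over the 2 libraries, among 8650 genes whose mean reached 10 CPM. Nearest to Ccr1 were Ptpn5 (distance 0.26), Mycn (0.40) and the leukotriene receptor gene Cysltr1 (0.41). Ccr2 lay nearest to Slc7a5 (0.42), Cyp51 (0.44) and Top2a (0.45), genes of amino acid uptake, cholesterol synthesis and DNA replication. For Cxcr4 they were Klf2 (0.50), Fos (0.56) and Tcf7 (0.59). Nearest to Ccr9 were Slc40a1 (0.03), Cybb (0.22) and Mpeg1 (0.29), of which Slc40a1 and Mpeg1 are in the macrophage list, and the part of macrophages in the Ccr9 value was not tested. Cxcr3 lay nearest to Ttc28 (0.19), Prdm16 (0.24) and Acss1 (0.29), Cxcr6 to Rad23b (0.05), Atp13a3 (0.09) and Furin (0.09), and Ccr4 to Coq7 (0.04), Lpar5 (0.05) and Rpp40 (0.13). With 2 libraries, many genes share a pattern, and the distances are a description.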

How the data were processed

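Per the file header and values, the authors deposited raw read counts per gene for 2 libraries, with a gene length in kb whose making is not stated. The submitters' processing notes name edgeR 3.28.1, HTSeq 0.6.0, STAR 2.6.0 and bcl2fastq 2.18.0.12, and mm10 and GRCm38 as builds. Their roles and settings and the use of strand are not given in the sources used here, so genes that overlap on opposite strands could not be told apart. In the table, 3 rows span Cxcr3 over many megabases of chromosome X but share 0 exon bases with it.

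Counts were scaled with TMM factors (edgeR 4.0.16, R 4.3.3), which were 0.947 for the expanded and 1.06 for the freshly isolated library. Folds are ratios of CPM with exact 95% conditional binomial intervals (SciPy 1.17.1). Against 0 counts a fold is a bound from 3 counts in that library. Such intervals and bounds cover counting error only, and the labels mention no molecular identifiers. Calls use log2 folds, and with 1 library per group no p-value was computed. Overlaps used GENCODE M21 (GRCm38). Named genes are the 9 receptors, 8 other chemokine receptors, the best known ligands and factors of each, and a selection of the 2 furthest up and 2 furthest down of each list at a mean of 10 CPM or more. Some genes that these rules name, and a motif, are not reported here and are left out of the counts of their lists. Pik3r6, Gnai2, C5ar1, Cd3e, Cd8a, Csf1r, Foxp3, Siglech, Spib, Cox6a2, Fyco1, Ly6g, Mcpt8, Il1rl1, Prg2, Epx and Siglecf were chosen after their values were seen. The receptors, lists and motifs were chosen with earlier results of these data known. The calculation was tested on simulated data. Alternatives were 5 other scalings (DESeq2 1.42.0 size factors among them), prior counts of 0.5 and 5, other filters and other fold thresholds.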

Additional observations from a re-analysis of the deposited data

How the results depend on the processing

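The 4 lower and 2 higher receptors were called under each of the 5 other scalings, both other prior counts and both other filters, and no receptor changed direction. At a threshold of 2-fold the higher receptors numbered 4, and at 10-fold the numbers were those at 4-fold. Scaling by total count moved the median log2 fold of all genes by -0.16, to -0.12. Under it, log2 folds were 1.75 for Ccr4 and 1.09 for Cxcr6. The log2 folds of Ccr6 (-8.97 to -5.68) and Ccr9 (-12.00 to -8.68) depend on the prior count because 1 library held 0 counts. The fold by which the summed receptor level was lower in expanded cells was 2.37 with total count, 2.16 with DESeq2 size factors, 2.23 with upper quartiles and 2.25 without the 50 most abundant genes. Scaling by total count gave 2 lower genes for G proteins and PI3Kγ, 4 lower RGS genes and 0 higher transcription factors. A prior count of 0.5 gave 1 higher RGS gene. With no filter on low counts 3 atypical receptors were lower. The atypical receptors added without a filter had means under 1 CPM. No paired analysis was possible because each group has 1 library, and for the same reason no library could be left out. Depth limits Ccr6 and Ccr9, which had 0 counts in the expanded library, to a bound, and it leaves wide intervals for Ccr8 and Ccr1.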
